A study of Mus musculus with 24 samples.

Results

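Actb, B2m, Gapdh and Rpl19 were the 4 mRNAs that the miRNA panel carried beside its small RNA probes, and they made up 4 of the 606 probes other than positive and negative controls, against 566 probes for mouse miRNAs. They were taken by name and not by a cut on their values, though earlier results of these data were known at the choice. The nCounter assay counts a colour-coded barcode for each target molecule, without amplification, and each sample was run in a lane of its own. All 24 lanes were used, and the central measure was the log2 ratio of a pair of these mRNAs within a lane, which the amount of RNA loaded into the lane cancels from. A ratio is compared here between lanes only, because the efficiency of each probe is unknown and a ratio within a lane is no ratio of molecules.

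The lanes held total RNA of a mouse model of metastatic mammary cancer, in which JygMC(A) cells carrying GFP and luciferase grow in the mammary fat pad of BalbC nude mice and spread to the lung. Laser capture provided 5 carcinoma areas and 7 spindle-shaped EMT-like areas of primary tumors (PT as a whole, n = 12), 4 lung metastases, 2 samples of normal mammary gland (NMG) and 2 of normal lung parenchyma. JygMC(A) cells grown as a monolayer (n = 2) or as third-generation 3D-spheres on plates that prevent attachment (n = 2) were lysed directly. All cultures are of 1 cell line, no group received a drug, the labels give no age, and the nude host lacks mature T cells but keeps other immune cells and its own stroma. The 16 tumor lanes came from 8 animals or pools, since areas of the same animal were often captured, and 1 carcinoma, 1 EMT-like and 1 metastasis lane carry the label of a pool of 3 animals. The animals are coded either with letters (3 carcinoma, 2 EMT-like and 1 metastasis lane, the pool included) or with a number (2 carcinoma, 5 EMT-like and 3 metastasis lanes), and NMG and normal lung came from the same 2 animals.

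These mRNAs are often used as references because nearly every cell makes them, but they belong to different processes. Actb encodes cytoplasmic beta-actin, a building block of the cytoskeleton. B2m encodes beta-2-microglobulin, the light chain that MHC class I needs to reach the cell surface, and is induced by interferon. Gapdh encodes a glycolytic enzyme, and Rpl19 encodes a protein of the large ribosomal subunit. In mixed tissue such mRNAs come from tumor cells, stroma, vessels and blood cells alike, so that in these captured samples fewer cells of a type and less RNA per cell cannot be told apart.

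The deposited values were counts from which the background of the lane had been removed, with no scaling between lanes. All 96 values (4 mRNAs in 24 lanes) were above the detection limit of their lane, which was set at 2 SD above the mean of the 6 negative controls, and the lowest was a Gapdh value at 2.46 times that limit. Over all lanes Actb ran from 685 to 5160, B2m from 106 to 1637, Gapdh from 48 to 409 and Rpl19 from 451 to 2331. Counting error alone gave a median SD of 0.034 for Actb, 0.072 for B2m, 0.11 for Gapdh and 0.041 for Rpl19 on the log2 scale. The sum of the mouse miRNA values ran from 26420 in a monolayer lane to 2335745 in normal lung replicate 2, which stood far above every other lane. The epithelial list of 7 miRNAs (the miR-200 family, miR-203 and miR-205) had a scaled sum of 931 to 5355 in carcinoma and 61.4 to 1748 in EMT-like areas, and 59.7 to 120 in the cultures. Both miR-126 strands, the endothelial markers, were listed at or below background in all 4 culture lanes. The 3D-sphere lanes differed from each other far less than any other pair of replicate lanes: over 44 miRNAs with a mean of at least 100, chi-square per degree of freedom was 2.94, against 28.6 or more in all other pairs and 260 between the monolayer lanes. They still differed by more than counting noise (chi-square p = 3.79e-10) and were kept as 2 samples, with results also given without them and with both counted as 1.

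In carcinoma, Actb was 984, 809, 2731, 1690 and 2455 in replicates 1 to 5. In the 7 EMT-like areas it ran from 828 over a median of 2338 to 5160. The metastases gave 685, 967, 1818 and 1832. These ranges overlapped, and the lanes of letter-coded animals held the lowest Actb value of each of the 3 kinds of tumor area. Outside the tumors, values of 3755 and 1537 (NMG), 1601 and 3287 (normal lung), 3462 and 971 (monolayer) and 719 and 709 (3D-spheres) were found. The monolayer lanes therefore differed more from each other than either did from many tumor lanes, whereas the sphere lanes were nearly equal.

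For B2m the carcinoma lanes gave 108, 184, 194, 424 and 484. EMT-like areas ran from 154 over a median of 420 to 1086. The metastases gave 141, 538, 598 and 758. The first 3 carcinoma lanes and the first metastasis, all from letter-coded animals, were the lowest of their groups. The NMG lanes held 1637 and 837, normal lung 382 and 549, the monolayer 250 and 165, and the spheres 106 and 107. No other mRNA of the 4 had so wide a range, with the highest lane 15.4 times the lowest, against 7.53 times for Actb, 8.52 for Gapdh and 5.17 for Rpl19.

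Gapdh was 155, 133, 200, 173 and 195 in carcinoma, ran from 86 over 271 to 409 in EMT-like areas, and was 133, 92, 216 and 133 in the metastases. The NMG lanes read 249 and 150, the monolayer lanes 290 and 188, and both sphere lanes 109. In normal lung it was 59 and 48, below all other lanes. Rpl19 was 1309, 998, 2331, 944 and 1241 in carcinoma, 697 over 1404 to 1979 in EMT-like areas and 1109, 957, 2013 and 1247 in the metastases. NMG read 1302 and 805, normal lung 451 and 811, the monolayer 1594 and 2322, and the spheres 1682 and 1490. Rpl19 thus stood high in the cultures, where B2m stood low. The positive controls with concentrations of 8 and 2 in their names read almost alike (200 to 320 and 202 to 343), so that values of this size, where much of B2m and Gapdh lies, may follow the amount of RNA less closely than higher ones. Its part in the ratios was not tested.

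**Figure D1:**
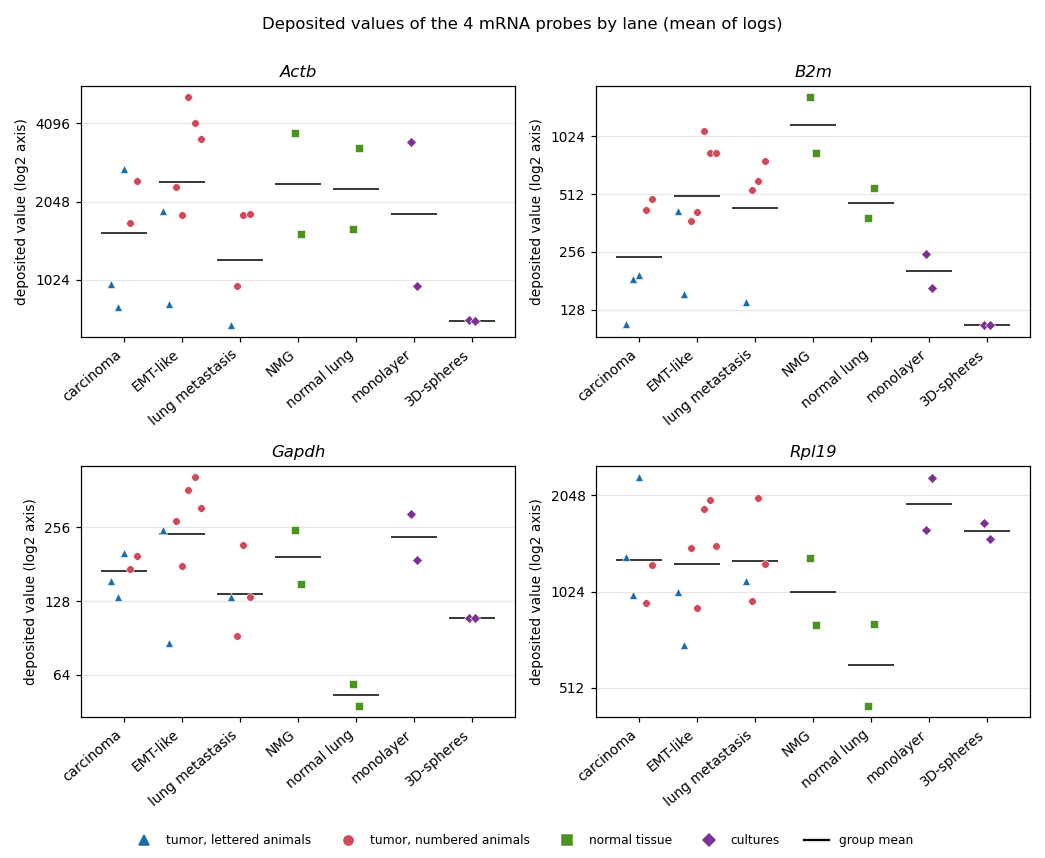
Deposited values of Actb, B2m, Gapdh and Rpl19 (log2 axis) in each of the 24 lanes, by group, with a line at the mean of the logs and symbols for the animals' codes, normal tissue and cultures. Gapdh in normal lung (59 and 48) lies below every other lane, and B2m in the 3D-spheres (106 and 107) lies at the bottom of its range.

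Among the 6 ratios, Gapdh/Rpl19 varied least over the 24 lanes (SD 0.59, range 2.02) and B2m/Rpl19 most (SD 1.31, range 4.31). B2m was the mRNA that moved most against the other three, with a mean SD of its ratios of 1.06, and Actb (0.83) and Gapdh (0.84) moved least, with Rpl19 at 0.95. In the 12 PT lanes alone the order was the same at its upper end, with B2m at 0.72 and Rpl19 at 0.68, against 0.51 for Actb and 0.49 for Gapdh. The spread within groups was 0.39 for Gapdh/Rpl19 and 0.81 for B2m/Rpl19, well above counting error.

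B2m/Rpl19 was highest in NMG (0.33 and 0.06), followed by normal lung (-0.24 and -0.56), and no tumor or culture lane reached either. EMT-like areas had a mean of -1.33 ± 0.54 (SD, n = 7), metastases -1.57 ± 1.04 (n = 4) and carcinoma -2.42 ± 1.17 (n = 5), and these groups overlapped. The monolayer gave -2.67 and -3.81 and the spheres -3.98 and -3.79, at the low end. NMG and normal lung were the only neighbours in this order, together with normal lung and EMT-like areas, that did not overlap. Carcinoma lanes fell apart by the animals' code, with -3.59, -2.43 and -3.58 in the letter-coded animals and -1.15 and -1.36 in the number-coded ones.

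Actb/B2m ran the other way, being lowest in NMG (1.20 and 0.88) and highest in the monolayer (2.55 and 3.79), with the spheres at 2.75 and 2.72. Carcinoma had a mean of 2.69 ± 0.78, normal lung 2.32 ± 0.36 and EMT-like areas 2.29 ± 0.20, and neighbouring groups overlapped all along this order. B2m/Gapdh was 2.71 and 2.47 in NMG and 2.67 and 3.49 in normal lung, and lay near 0 in every culture (-0.21, -0.19, -0.04 and -0.03), with tumor areas between -0.52 and 2.53. The 4 culture lanes agreed on this ratio to within a range of 0.19, the tightest of any ratio in them.

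For Actb/Gapdh, normal lung stood apart, at 4.74 and 6.07, with all other lanes between 2.36 and 3.91. Normal lung also had the highest Actb/Rpl19 (1.83 and 2.02), followed by NMG (1.53 and 0.93), and the lowest values of this ratio were the spheres (-1.22 and -1.07) and monolayer replicate 2 (-1.26), whereas monolayer replicate 1 was at 1.12, among the EMT-like lanes. Gapdh/Rpl19 was -2.38 and -2.42 in NMG and -2.37 ± 0.30 in EMT-like areas. Carcinoma had -2.92 ± 0.42 and metastases -3.21 ± 0.13, normal lung gave -2.91 and -4.05, the monolayer -2.45 and -3.62, and the spheres -3.94 and -3.76. Only carcinoma failed to overlap with the group above it, NMG, in this order.

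**Figure D2:**
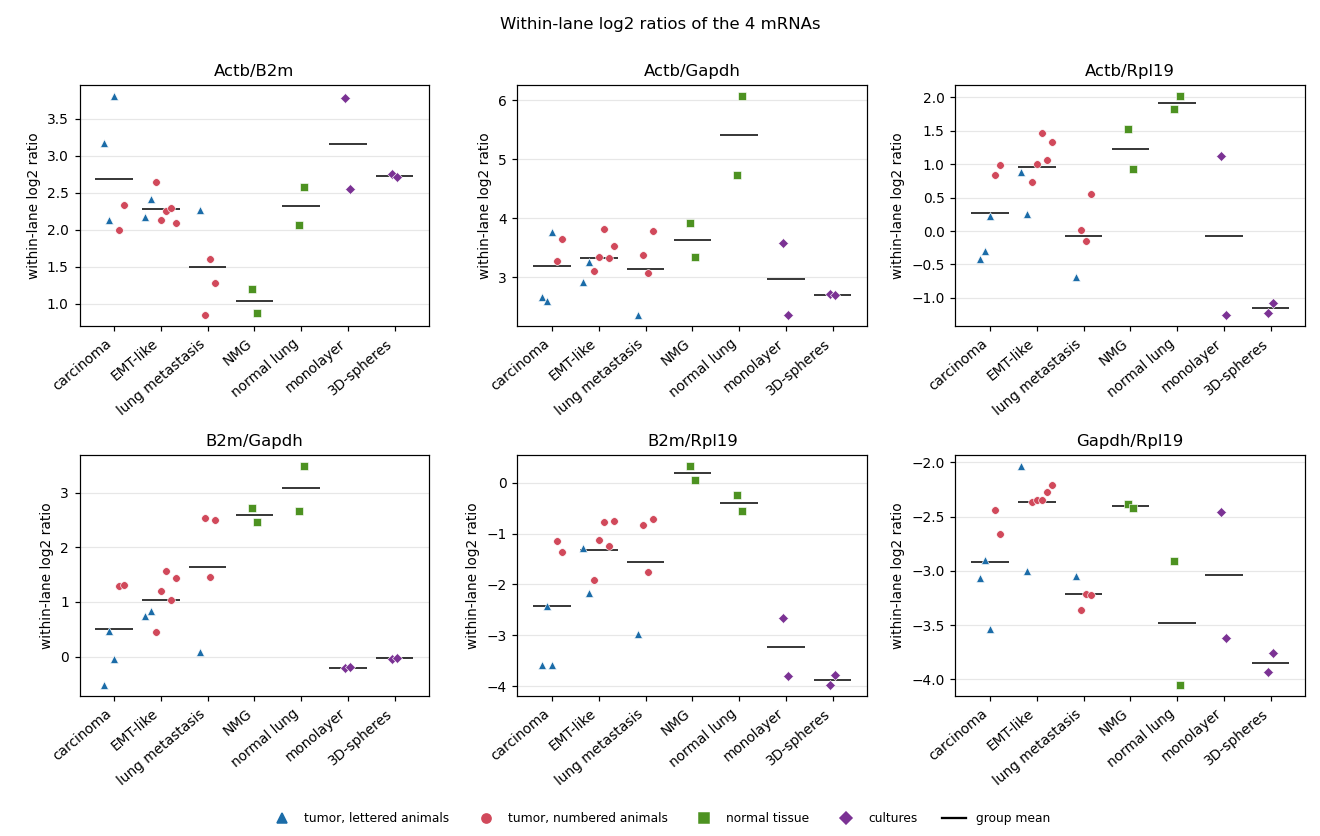
Within-lane log2 ratios of the 6 pairs of mRNAs by group, with a point for each lane, a line at the group mean and symbols for the animals' codes. In B2m/Rpl19, NMG lies at the top (0.33 and 0.06), the spheres lie at the bottom (-3.98 and -3.79), and the letter-coded carcinoma lanes (triangles) lie below the number-coded ones.

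The first comparison asked whether the balance of these mRNAs differed between the epithelial and the spindle-shaped areas of the primary tumor. Against Rpl19, all 3 other mRNAs had a lower mean in carcinoma than in EMT-like areas. The log2 difference was -0.55 for Gapdh/Rpl19 (exact two-sided permutation p = 0.0265, adjusted p = 0.0682), -0.69 for Actb/Rpl19 (exact p = 0.0492, adjusted p = 0.0909) and -1.10 for B2m/Rpl19 (exact p = 0.0505, adjusted p = 0.0909). Adjustment was over the 18 tests of 6 ratios in the 3 comparisons that are tested here, and 0 of the 6 ratios were called between carcinoma and EMT-like areas, 2 of them having an unadjusted p under 0.05. With limma the standard errors of these differences were 0.34, 0.38 and 0.44.

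Most of the carcinoma lanes came from letter-coded animals and most EMT-like lanes from number-coded ones, and the ratios to Rpl19 moved with that code. In the number-coded animals alone B2m/Rpl19 differed by -0.09 (2 and 5 lanes, exact p = 0.81), in the letter-coded ones by -1.47 (3 and 2 lanes, exact p = 0.2). Gapdh/Rpl19 differed by -0.24 in the number-coded animals (exact p = 0.0476, the smallest of 21 splits) and by -0.65 in the letter-coded ones (exact p = 0.3), and Actb/Rpl19 by -0.21 (exact p = 0.429) and -0.73 (exact p = 0.2). With lanes exchanged only among animals of the same kind of code, a test added after seeing the data, Gapdh/Rpl19 was at -0.43 (exact p = 0.0238, adjusted p = 0.0714), Actb/Rpl19 at -0.44 (exact p = 0.0714, adjusted p = 0.143) and B2m/Rpl19 at -0.72 (exact p = 0.114, adjusted p = 0.196). In the 4 animals or pools with both areas, B2m/Rpl19 was lower in carcinoma in 3 and higher in 1, with a mean difference of -0.51 (range -2.30 to 0.76, exact sign-flip p = 0.625). Whether the code stands for a cohort, a date or a position of the tumor is not given in the labels, and its part in the difference was not tested.

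The second comparison set lung metastasis against PT. Actb/B2m was lower in the metastases, at 2.27, 0.84, 1.60 and 1.27, a mean of 1.50 ± 0.60 (SD, n = 4) against 2.45 ± 0.53 (n = 12) in PT, where it ran from 1.99 to 3.81. The difference of -0.96 on the log2 scale, or 1.94-fold, was the only call of the 6 ratios (exact permutation p = 0.00879, adjusted p = 0.0475), and 3 of the 4 metastases lay below every PT lane. The exception was the pooled lane of letter-coded animals. With each lane referred to its B2m value, limma called 2.9% of 586 probes in this comparison and did not call Actb (adjusted p = 0.533). With all 48 ratio tests of the 8 comparisons in the adjustment, its adjusted p was 0.127. In the number-coded animals the difference was -1.01 (3 and 7 lanes, exact p = 0.00833), and in the letter-coded ones -0.47 with a single metastasis lane (exact p = 0.833). Within the 4 animals or pools that gave both, Actb/B2m was lower in the metastasis than in the mean of the PT lanes in all 4, although in the pool it was 2.27 in the metastasis and 2.17 in the EMT-like lane, with a mean difference of -0.83 (range -1.39 to -0.40, exact sign-flip p = 0.125, the smallest that 4 pairs allow). The animals of metastasis replicates 3 and 4 had an EMT-like lane as their only PT lane.

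The other 5 ratios were not called. Relative to Gapdh, B2m was higher in the metastases by 0.83 (exact p = 0.0835, adjusted p = 0.137), and relative to Rpl19 by 0.22 (exact p = 0.71). Actb and Gapdh, in turn, lay lower against Rpl19, by a difference of -0.74 for Actb/Rpl19 (exact p = 0.0473, adjusted p = 0.0909) and -0.61 for Gapdh/Rpl19 (exact p = 0.0214, adjusted p = 0.0643), while Actb/Gapdh differed by -0.13 (exact p = 0.631). Both ratios to Rpl19 were lower in the metastasis than in the mean of the PT lanes in all 4 animals or pools, although in the pool Gapdh/Rpl19 was -3.05 in the metastasis and -3.07 in carcinoma, and the 4 metastases agreed closely on Gapdh/Rpl19 (-3.05, -3.21, -3.21 and -3.36). For the animals of metastasis replicates 3 and 4, the only PT lane was EMT-like, where both ratios had a higher mean than in carcinoma. In the same test within the kinds of code, Actb/Rpl19 gave -0.89 (exact p = 0.00139, adjusted p = 0.0167), Gapdh/Rpl19 -0.68 (exact p = 0.00833, adjusted p = 0.0333) and Actb/B2m -0.86 (exact p = 0.00694, adjusted p = 0.0333).

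Some markers of blood cells differed in the metastases on scaled values. The erythroid list (miR-451, miR-144 and miR-486) had a scaled sum of 342 to 521 in metastases against 83.7 to 306 in PT. The immune list of 5 miRNAs had 857 to 1636 against 569 to 1238, which overlapped. Cultures of the tumor cell line had 755 to 1238 on the same list, with deposited miR-155 at 413 to 442. This sum is therefore not one of blood cells alone. The deposited erythroid sum was 222 to 415 in metastases, 67 to 169 in carcinoma and 117 to 309 in EMT-like areas. The deposited immune sum was 661 to 856, 489 to 912 and 694 to 877 in the same order. The lymphoid miR-150 was called higher (log2 difference 2.62, standard error 0.35, limma adjusted p = 6.17e-05), whereas the myeloid miR-223 was at -0.68 (adjusted p = 0.369) and miR-142-3p at 0.53 (adjusted p = 0.723). Nor were miR-155 (0.37, limma adjusted p = 0.472) and miR-142-5p (0.46, adjusted p = 0.463) called. The part of these markers in the B2m ratios was not tested.

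**Figure D3:**
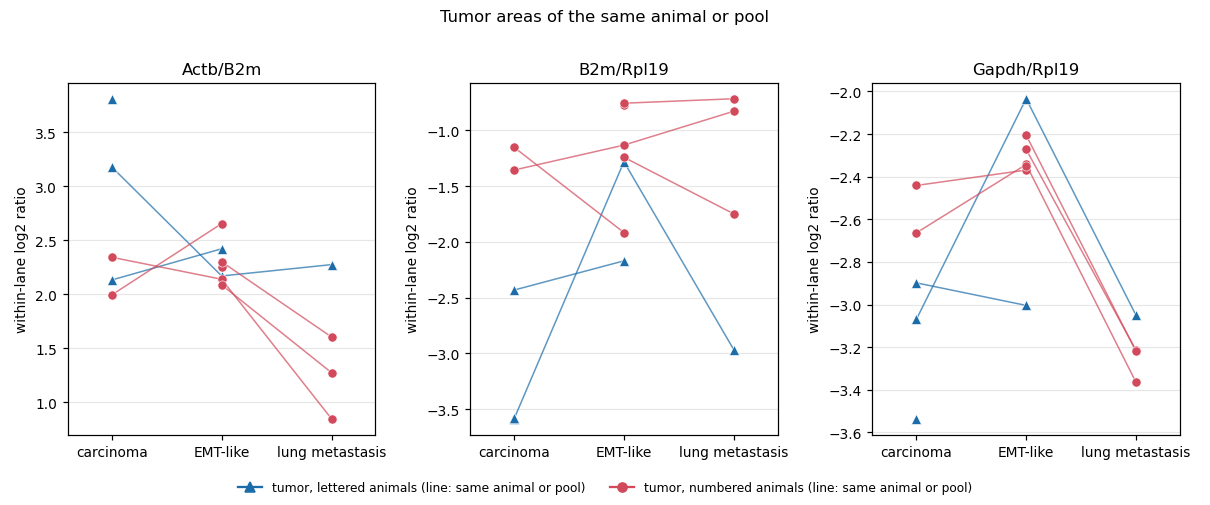
Actb/B2m, B2m/Rpl19 and Gapdh/Rpl19 (within-lane log2 ratios) in carcinoma, EMT-like and lung metastasis lanes, with a line joining lanes of the same animal or pool. Every line from EMT-like areas into lung metastasis falls for Gapdh/Rpl19, to between -3.36 and -3.05, whereas lines between carcinoma and EMT-like areas run in both directions for all 3 ratios.

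The third comparison set the cultured JygMC(A) cells, monolayer and spheres together, against the tumors they form. All PT lanes were laser-captured and all cultures lysed directly, so that growth in culture and preparation cannot be told apart here. On average Rpl19 weighed more in culture: B2m/Rpl19 differed by -1.78 (3.43-fold, exact permutation p = 0.0033), Actb/Rpl19 by -1.28 (2.43-fold, exact p = 0.0121) and Gapdh/Rpl19 by -0.84 (1.79-fold, exact p = 0.00934). Monolayer replicate 1 went the other way in Actb/Rpl19 (1.12, PT mean 0.67) and in Gapdh/Rpl19 (-2.45, PT mean -2.60). B2m/Gapdh was lower as well, by a difference of -0.93 (1.91-fold, exact p = 0.0132). These were 4 calls of 6 ratios, all with an adjusted p of 0.0475 over 18 tests and 0.127 over all 48. The test took lanes as independent, although some PT lanes share an animal or pool and all cultures are of 1 cell line. In the same comparison limma called 31.4% of 586 probes when each lane was referred to its Rpl19 value and 22.7% when it was referred to Gapdh, so that a difference against either mRNA was common. In each of these 4 ratios the cultures and PT overlapped.

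The size of these differences depended on which tumor lanes were taken. Against the number-coded animals, B2m/Rpl19 in the cultures differed by -2.37 (4 and 7 lanes, exact p = 0.00303, the smallest this split allows) and B2m/Gapdh by -1.30 (exact p = 0.00303). Against the letter-coded animals the same ratios differed by -0.95 (4 and 5 lanes, exact p = 0.143) and -0.41 (exact p = 0.175). Of the 3 letter-coded carcinoma lanes, those at -3.59 and -3.58 for B2m/Rpl19 lay within the range of the cultures (-3.98 to -2.67) and that at -2.43 lay above it. Without the spheres, 0 of the 6 ratios were called (adjusted p 0.114 or more, with B2m/Rpl19 at -1.45), and with both sphere lanes counted as 1 sample B2m/Rpl19 was at -1.67 (exact p = 0.011, adjusted p = 0.0909). Markers of host cells did not move as 1 set. Of the 5 immune miRNAs, miR-223 (log2 difference -6.64, limma adjusted p = 5.75e-13) and miR-142-3p (-3.60, adjusted p = 2.87e-07) were lower in the cultures and under the detection limit in all 4 lanes, and miR-150 was not called (-0.50, adjusted p = 0.336). In contrast, miR-155 (1.21, adjusted p = 0.000125) and miR-142-5p (1.05, adjusted p = 0.00369) were higher in the cultures on scaled values. Deposited miR-155 was 413 to 442 in the cultures, 273 to 382 in carcinoma and 372 to 435 in EMT-like areas. Deposited miR-142-5p was not higher in the cultures: 37 to 45 in the monolayer, 30 to 51 in the spheres, 31 to 56 in carcinoma and 27 to 43 in EMT-like areas. The scaled immune sum ran from 755 to 1238 in culture and from 569 to 1238 in PT. The 3 erythroid miRNAs were under the detection limit in every culture lane. The part of host cells in B2m of the tumors was not tested.

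Within the cultures, B2m/Gapdh and Gapdh/Rpl19 did not overlap between spheres and monolayer and the other 4 ratios did. Monolayer replicate 1 had a high Actb/Rpl19 (1.12) and replicate 2 a low one (-1.26), so that the spheres (-1.22 and -1.07) resembled the latter. The ratio differed by -1.08 on average, and by -2.27 or 0.11 when the monolayer was taken as replicate 1 or replicate 2 alone. B2m/Gapdh was the ratio with the smallest spread, with the monolayer lanes at -0.21 and -0.19 and the sphere lanes at -0.04 and -0.03, a difference of 0.17 with no overlap (exact permutation p = 0.333, the smallest that 2 against 2 allows). Counting error on Gapdh alone reaches about this size. Gapdh/Rpl19 was lower in the spheres (-3.94 and -3.76) than in the monolayer (-2.45 and -3.62), by a difference of -0.81 with no overlap (exact permutation p = 0.333).

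Of the tumor areas, both carcinoma and EMT-like areas had their 3 largest ratio differences to NMG in the ratios with B2m. B2m/Rpl19 was lower than in NMG by a difference of -2.62 in carcinoma (6.13-fold) and -1.52 in EMT-like areas (2.87-fold), and B2m/Gapdh by -2.09 (4.26-fold) and -1.55 (2.93-fold), with no overlap in either comparison. Actb/B2m was higher by 1.65 in carcinoma and 1.25 in EMT-like areas, again without overlap. Gapdh/Rpl19 in EMT-like areas was within 0.03 of NMG. The exact two-sided permutation p was 0.0952 for B2m/Rpl19 in carcinoma, and 0.0278 in EMT-like areas, which is the smallest that 7 against 2 allows. Adjusted over 48 tests these were 0.241 and 0.133, and with 2 lanes of NMG no call was made. The comparisons share the NMG lanes and are not independent of each other.

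The immune list stood higher in NMG, with a scaled sum of 2620 to 5689, than in carcinoma (569 to 1238) and EMT-like areas (643 to 873), and NMG had the highest B2m/Rpl19 of all groups. All 5 immune miRNAs were above the detection limit in every NMG lane, with miR-142-3p at 3485 and 6745. Its members did not all move this way: miR-142-3p, miR-150 and miR-223 were called lower in both tumor areas than in NMG (log2 differences of -4.95 to -2.28), whereas miR-155 was called higher (carcinoma 1.67, EMT-like areas 1.63, limma adjusted p = 0.000325 and 0.00028) and miR-142-5p was at 1.22 in carcinoma (adjusted p = 0.0199, called) and 0.63 in EMT-like areas (adjusted p = 0.251). These differences are of scaled values. Deposited miR-155 was 273 to 382 in carcinoma, 372 to 435 in EMT-like areas and 260 to 345 in NMG. Deposited miR-142-5p was 31 to 56, 27 to 43 and 50 to 55 in the same order. In normal lung, however, the immune sum (4409 to 5723) was as high as in NMG, with miR-142-3p at 4646 and 24935, while B2m/Rpl19 was lower than in NMG in both animals, by -0.62 and -0.57. The part of immune cells in B2m was not tested.

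Between normal lung and NMG of the same 2 animals, 5 of the 6 ratios differed in the same direction in both. The smallest exact sign-flip p that 2 animals allow is 0.5, and the 6 ratios share members. Actb was higher in lung against each of the others, Actb/Gapdh by 2.72 in one animal and 0.83 in the other, Actb/B2m by 1.70 and 0.87 and Actb/Rpl19 by 1.09 and 0.30 in the same order. Gapdh/Rpl19 differed by -1.63 and -0.53, and B2m/Gapdh by 1.02 and -0.04. Compared with the normal lung samples, which came from other animals, metastases had a lower Actb/Gapdh, by a difference of -2.26 (4.79-fold), and a lower Actb/Rpl19, by -1.99 (3.97-fold), each without overlap (exact permutation p = 0.0667, the smallest that 4 against 2 allows). Gapdh in normal lung, at 59 and 48, was the lowest value of any mRNA, and in the lane with the highest miRNA sum (normal lung replicate 2) it carried a counting SD of up to 0.25 on the log2 scale.

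The levels of the mRNAs against the miRNAs of the same lane gave a second view, in which the values were scaled on the mouse miRNAs and compared with limma over 587 probes. The 4 mRNAs together amounted to 1.06 to 5.86% of the mouse miRNA sum in PT and 1.83 to 4.68% in metastases. The NMG lanes had 1.24 and 0.63%, those of normal lung 0.42 and 0.20%. Cultures had 12.03 and 13.8% for the monolayer lanes and 6.76 and 7.23% for the sphere lanes. The cultures were thus the highest and normal lung the lowest, with no overlap between cultures, tumor areas and normal lung. Cultures also differed from the laser-captured lanes in preparation, and its part in this share was not tested.

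For carcinoma against EMT-like areas limma called 0 of 4 mRNAs and 0.17% of the 587 probes at an adjusted p under 0.05, and for metastasis against PT 0 of 4 mRNAs and 3.24%. The count at an unadjusted p under 0.05 was 0 of 4 in the former and 1 of 4 in the latter, Rpl19 (log2 difference 0.55, standard error 0.26, adjusted p = 0.316). B2m was at 0.77 ± 0.49 (SE) in metastases and at -0.68 ± 0.50 in carcinoma relative to EMT-like areas, with adjusted p of 0.567 and 0.580. Against PT, Rpl19 was the single mRNA of 4 called in the cultures, higher by 1.46 (standard error 0.26, limma adjusted p = 0.00012), with 30.2% of all probes called. Without scaling this was 0.46 (adjusted p = 0.335), against a median of all probes of -0.30, and B2m was then called lower (-1.31, adjusted p = 0.0364). Between spheres and monolayer no mRNA was called, against 4.6% of probes, and Actb had the largest difference, -1.10 ± 0.72 (SE).

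Rpl19 and Gapdh were higher relative to the miRNAs in both kinds of tumor area than in NMG. Rpl19 rose by 1.91 in carcinoma and 1.49 in EMT-like areas (limma adjusted p = 0.00055 and 0.00379), and Gapdh by 1.37 and 1.51 (adjusted p = 0.0308 and 0.0146). Limma called 29.5% and 25.4% of the probes here, and the median difference over all probes was -0.66 and -0.28. Actb (0.94 and 1.22) and B2m (-0.71 and -0.03) were not called. These calls rested on the scaling, and the miRNA sum of NMG (525697 and 560247) was above that of every tumor lane. Without scaling the single mRNA called in carcinoma was B2m, lower by a difference of -2.28 (limma adjusted p = 0.00775, median of all probes -1.81), 0 of 4 were called in EMT-like areas, and Gapdh in carcinoma turned to -0.19. The share of all probes called without scaling is not given here.

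In normal lung Gapdh fell by 2.13 relative to NMG (limma adjusted p = 0.0139, 11.2% of probes called), a call that was lost without NMG replicate 1 and without normal lung replicate 2. Between metastases and normal lung, 3 of 4 mRNAs rose in a comparison that called 48.7% of all probes and had a median of -0.79. Gapdh rose by 3.52 (adjusted p = 4.16e-06), Rpl19 by 3.32 (5.2e-07) and B2m by 2.16 (0.0195), and Actb was at 1.34 (0.0794). With no scaling, Actb and B2m turned to -0.91 and -0.09.

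**Figure D4:**
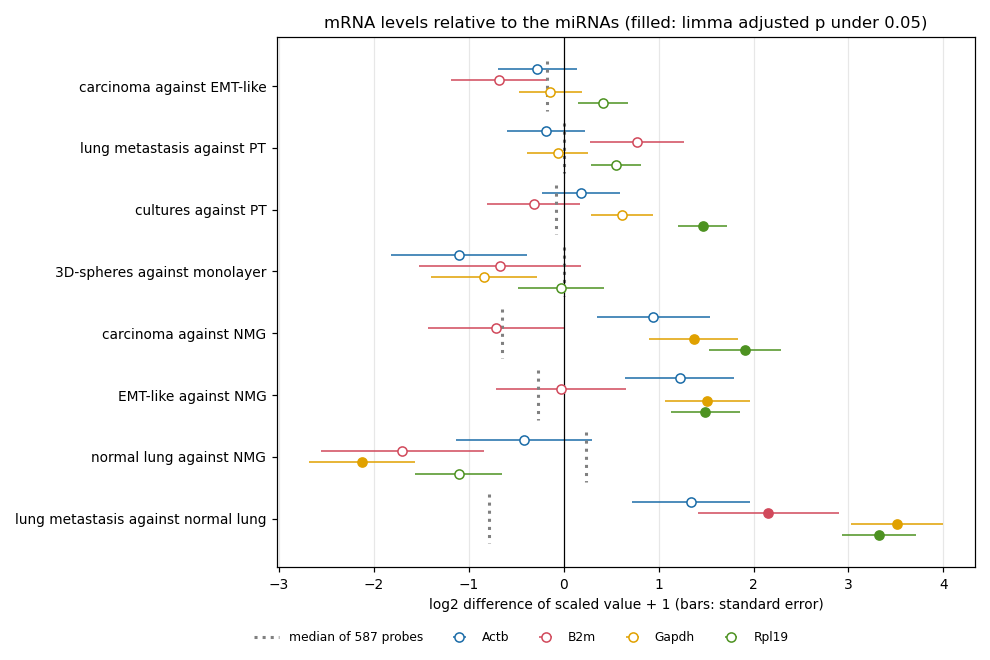
Log2 differences in the scaled level of each mRNA in 8 comparisons, with standard errors as bars, filled points where limma's adjusted p was under 0.05, and a dotted line at the median of all 587 probes. Rpl19 lies furthest to the right in cultures against PT (1.46), and B2m lies left of the other mRNAs in carcinoma and in EMT-like areas against NMG (-0.71 and -0.03).

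The order of groups on the scaled level differed between the mRNAs. For Rpl19 the monolayer (mean log2 11.78) and spheres (11.76) came first and overlapped each other, followed without overlap by metastasis (10.86), carcinoma (10.55) and EMT-like areas (10.13), which overlapped. NMG (8.64) and normal lung (7.53) followed, each below all lanes of the group above. For Gapdh the monolayer (8.74) came first, then the spheres (7.90) and the tumor areas (7.63 to 7.77), and again NMG (6.25) and normal lung (4.13) came last without overlap. For Actb and B2m each pair of neighbouring groups overlapped, with the monolayer (11.71) at the top of Actb, metastasis (9.29) at the top of B2m, and normal lung last in both (9.45 and 7.14).

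Ratios among the mRNAs can be set beside ratios among 5 miRNAs that often serve as references (miR-16, miR-103, miR-191, miR-93 and miR-25). Over the 24 lanes the 6 mRNA ratios had SDs of 0.59 to 1.31 (median 0.87), the 10 ratios among these miRNAs 0.43 to 1.87 (median 1.03), and the 20 ratios of such a miRNA to an mRNA 1.09 to 2.98 (median 1.44). In the 16 tumor lanes alone the medians were 0.67, 0.38 and 0.82. Ratios across the 2 kinds of RNA were the most variable of the 3 sorts in both sets of lanes, and in tumor areas the miRNA ratios were steadier than those of the mRNAs. These are descriptions, with ratios that share members.

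The mRNAs followed one another to different degrees. Over the 24 scaled lanes Spearman's rho was 0.85 between Actb and Gapdh and 0.24 between B2m and Rpl19, and the other 4 pairs lay between 0.48 and 0.72. On unscaled values the same 2 pairs were at 0.72 and -0.05. All points share the lane and its scaling factor, so these are descriptions only.

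Among 196 mouse miRNAs above the detection limit in at least 12 lanes, those with a pattern most like each mRNA over the 24 lanes were ranked by Spearman's rho on scaled values. Actb was followed by miR-149 (0.69), miR-125a-5p (0.68) and miR-670 (0.61), and B2m by miR-539 (0.62), miR-3471 (0.56) and miR-135a (0.45). Gapdh was followed by miR-670 (0.75), miR-493 (0.69) and miR-1959 (0.67), and Rpl19 by miR-423-5p (0.83), miR-202-5p (0.81) and miR-142-5p (0.80). The 3 miRNAs listed for Rpl19 gave 0.02, 0.28 and -0.19 on unscaled values, so that their likeness was seen on scaled values only. Likewise miR-670 fell to 0.28 with Actb and 0.24 with Gapdh, and miR-1959 to 0.32 with Gapdh. The other matches lay between 0.57 and 0.74 on unscaled values, with miR-125a-5p at 0.74 and miR-3471 at 0.70. The mature sequences of the 4 probes whose name gives an unambiguous match in RefSeq (GRCm38.p6) are shown, because these are the probes a reader would set beside the mRNAs, with the seed (bases 2 to 8) in capitals.
miR-125a-5p: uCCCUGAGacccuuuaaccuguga
miR-3471: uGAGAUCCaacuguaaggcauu
miR-423-5p: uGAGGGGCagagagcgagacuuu
miR-202-5p: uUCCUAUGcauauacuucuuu
No seed is shared among these 4 miRNAs.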

How the data were processed

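miRNA and mRNA probes were measured in 24 nCounter lanes. The deposited values, recorded here as a score, are whole-number counts from which the authors subtracted a lane background close to the mean of its 6 negative controls, as the controls show. They were not scaled between lanes, and 0 columns of other samples were present. Per the labels, Partek was used, and its version for these lanes is not given in the sources used here. Genome build and probe sequences are not given in the sources used here.

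Ratios were differences of log2(value + 1) within a lane, with values floored at 0. Exact two-sided permutation tests compared group means, with Benjamini-Hochberg adjustment over 18 tests (3 comparisons of 6 ratios). The added test within the kinds of code was adjusted over carcinoma against EMT-like areas and metastasis against PT only. The 5 smaller comparisons were given with the smallest p they allow and no call. That 2 of them, against NMG, can reach an unadjusted p under 0.05 was seen only later. Levels were scaled by TMM factors from the mouse miRNAs (trims of 30% and 5%, reference carcinoma replicate 2) and compared with limma 3.58.1 (R 4.3.3) with a trend, 7 groups in 1 fit and 587 probes above 0 in at least 1 lane. A call was an adjusted p under 0.05. Python 3.11.15 with numpy 2.4.6, pandas 2.3.3, scipy 1.17.1 and matplotlib 3.10.9 was used. Values named are those of the 4 mRNAs, the 3 miRNAs most like each and marker lists. The members, lists and tests were chosen with earlier results of these data known. Counting SDs and chi-square values used the lowest background that each lane implies.

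Replicates are labelled biological, without stating that cultures were separate. Same-numbered lanes were not taken as pairs by replicate number, since the animal codes pair them: the median correlation of deviations from group means over 209 probes was 0.097 within an animal or pool (10 pairs, range -0.31 to 0.36), 0.065 between animals of the same kind of code and -0.129 between kinds. Tested on simulated data, the limma procedure recovered 51, 45, 41 and 26% of 200 changed probes (log2 change of 2, 587 probes) in carcinoma against EMT-like areas, metastasis against PT, cultures against PT and spheres against monolayer. It recovered 34% and 30% in carcinoma and EMT-like areas against NMG, 31% in normal lung against NMG and 34.5% in metastasis against normal lung. False calls made up 0.97% of calls in carcinoma against EMT-like areas and 6.25% in metastasis against PT. They made up 20.4% in cultures against PT, 14.8% in spheres against monolayer and at most 1.64% in the rest. Where the mean was at least 50, 90.2 to 100% of the changed probes were recovered. The simulation gave every probe the same dispersion and had no effect of the animal or its code, so these shares hold for that setting only. Alternatives were a pseudocount of 10, a higher background, medians, limma in place of permutation, other scalings, a filter of 20 in 2 lanes, only the groups compared, the animal as a block, the animals' codes apart or as a term, and leaving out each lane. Viral miRNA probes entered the fit but are not described.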

Additional observations from a re-analysis of the deposited data

Results flagged for a closer look

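Gapdh/Rpl19 in EMT-like replicate 2 was -3.004 on the log2 scale, while the other 6 EMT-like lanes lay between -2.37 and -2.03. The lane is far from the others by Dixon's criterion, its gap being 0.655 of the whole range of the group against a critical value of 0.568. Chance gives such a lane in about 1 of 20 groups, and 4 mRNAs and 6 ratios were looked at in each group of 4 or more. The same lane had the lowest Gapdh (86), B2m (154), Actb (828) and Rpl19 (697) of the EMT-like areas.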

How the results depend on the processing

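Over 18 ratio results in the 3 tested comparisons, 335 of 444 alternative values kept their direction and their side of the threshold, 76 lost a call, 21 gained one and 12 turned in direction. All 5 calls sat at an adjusted p of 0.0475, so small shifts moved them. With the animal as a replicate block, Actb/B2m in metastasis against PT was -0.83 with its call lost, because 4 pairs allow no exact p under 0.125, and B2m/Rpl19 turned to -0.15. For levels limma estimated a correlation of 0.000635 within the block, which therefore changed no count of mRNAs called among the 8 comparisons. The crossed pairing of normal tissue, added because the correlation was -0.209, called 1 of 4 mRNAs and 62 probes, against 1 and 66. The 3D-spheres and monolayer lanes share a culture number only (correlation 0.063). The cause of the changes below was not tested unless lanes were left out. A pool, 2 lanes of a group and the closeness of the sphere lanes limit what the counts of calls can carry, and the flat response of the positive controls between 200 and 343 limits small values of B2m and Gapdh.

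With the higher background all 5 calls were lost, at -1.001 for Actb/B2m in metastasis against PT and at -1.29 (Actb/Rpl19), -0.98 (B2m/Gapdh), -1.88 (B2m/Rpl19) and -0.90 (Gapdh/Rpl19) in cultures against PT. With limma across all probes the calls were lost at -0.96 for Actb/B2m in metastasis against PT, and at -0.93 (B2m/Gapdh) and -0.84 (Gapdh/Rpl19) in cultures. With medians, Gapdh/Rpl19 in metastasis against PT gained a call at -0.81 and B2m/Gapdh in cultures lost its own at -1.04.

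In letter-coded animals alone, the values in metastasis against PT were -0.47 (Actb/B2m, call lost), -0.21 (B2m/Gapdh) and -0.36 (B2m/Rpl19), the latter 2 turned, and those in cultures against PT lost their calls at -0.74 (Actb/Rpl19), -0.41 (B2m/Gapdh), -0.95 (B2m/Rpl19) and -0.53 (Gapdh/Rpl19). In number-coded animals alone, carcinoma against EMT-like areas turned to -0.12 (Actb/B2m), 0.038 (Actb/Gapdh) and 0.16 (B2m/Gapdh). Calls were gained there in metastasis against PT at -0.92 (Actb/Rpl19), 0.98 (B2m/Gapdh) and -0.89 (Gapdh/Rpl19), and in cultures at 0.70 (Actb/B2m) and -0.60 (Actb/Gapdh). With the code held fixed, an alternative added after seeing the data, metastasis against PT gained calls at -0.89 (Actb/Rpl19) and -0.68 (Gapdh/Rpl19) and B2m/Rpl19 turned to -0.035. Without the pooled lanes, also added later, Actb/Gapdh turned to 0.040 and B2m/Gapdh gained a call at 1.21.

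Further alternatives added later concerned the cultures. Without the monolayer B2m/Gapdh lost its call at -0.85. Without the spheres all 4 calls were lost, at -0.74 (Actb/Rpl19), -1.02 (B2m/Gapdh), -1.45 (B2m/Rpl19) and -0.44 (Gapdh/Rpl19), and with the sphere lanes counted as 1 sample likewise, at -1.10, -0.96, -1.67 and -0.71.

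Leaving out 1 lane gave ranges in cultures against PT of -1.86 to -1.06 (Actb/Rpl19), -1.05 to -0.86 (B2m/Gapdh), -2.07 to -1.64 (B2m/Rpl19) and -1.17 to -0.68 (Gapdh/Rpl19). The 3 ratios to Rpl19 lost their calls without monolayer replicate 2, either sphere lane, carcinoma replicate 2 and each EMT-like lane but replicate 2 (10 of 16 lanes, adjusted p up to 0.0909), and B2m/Gapdh also without monolayer replicate 1 and carcinoma replicate 4. In metastasis against PT the ranges were -1.21 to -0.74 (Actb/B2m), -0.34 to 0.14 (Actb/Gapdh), -0.95 to -0.53 (Actb/Rpl19), 0.53 to 1.35 (B2m/Gapdh), -0.066 to 0.68 (B2m/Rpl19) and -0.70 to -0.56 (Gapdh/Rpl19). The call of Actb/B2m was lost without metastasis replicates 2, 3 or 4, carcinoma replicate 2 and each EMT-like lane but replicate 2, with an adjusted p up to 0.111. Calls appeared for Actb/Rpl19 without carcinoma replicate 1, for B2m/Gapdh without metastasis replicate 1 and for Gapdh/Rpl19 without carcinoma replicates 1 or 3 or EMT-like replicate 2. In carcinoma against EMT-like areas the ranges were -0.28 to 0.0087 (Actb/Gapdh), -0.87 to -0.52 (Actb/Rpl19), -1.41 to -0.80 (B2m/Rpl19) and -0.67 to -0.40 (Gapdh/Rpl19). Calls appeared there without carcinoma replicate 5 for all 3 ratios to Rpl19, without carcinoma replicate 4 for B2m/Rpl19 and Gapdh/Rpl19, and without EMT-like replicate 2 for Actb/Rpl19 and Gapdh/Rpl19.

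Levels against the miRNAs depended on the scaling. With no scaling, log2 differences turned to -0.82 (Actb) and -0.38 (Gapdh) in cultures against PT, to -0.63 (Actb) and -0.19 (Gapdh) in carcinoma against NMG, and to -0.91 (Actb) and -0.088 (B2m) in metastasis against normal lung, and against NMG 0 mRNAs were called in EMT-like areas and 1 in carcinoma. Scaling by the positive controls turned Rpl19 to -0.066 in metastasis against PT, Actb and Gapdh to -0.73 and -0.30 in cultures, to -0.70 and -0.26 in carcinoma against NMG, Actb to -0.046 in EMT-like areas against NMG, and Actb and B2m to -1.08 and -0.25 in metastasis against normal lung. It called 0 mRNAs in cultures, 1 in metastasis against normal lung and, against NMG, 0 in EMT-like areas and 1 in carcinoma. Scaling by the 100 most abundant miRNAs turned B2m to 1.95 in cultures, where it called 4 mRNAs, and to 0.19 and 1.13 in carcinoma and EMT-like areas against NMG. The miRNA total turned B2m to 0.70 in cultures, with 3 mRNAs called, and to 0.60 in EMT-like areas against NMG, and called 2 in normal lung against NMG. With the animals' code as a term, Actb and Gapdh in carcinoma against EMT-like areas turned to 0.071 and 0.039. With only the groups compared, 1 mRNA was called in EMT-like areas and 0 in normal lung against NMG.

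Without 1 lane, the level of Actb ranged from -0.22 to 0.47 in cultures against PT, -0.38 to 0.14 in metastasis against PT and -1.14 to 0.30 in normal lung against NMG, that of Gapdh from -0.21 to 0.0037 in metastasis against PT, that of Rpl19 from -0.55 to 0.50 in spheres against monolayer and that of B2m from -0.58 to 0.53 in EMT-like areas against NMG. The count of mRNAs called ran from 1 to 2 in carcinoma against NMG (1 without carcinoma replicate 5 or NMG replicate 2), from 0 to 3 in EMT-like areas against NMG (0 without NMG replicate 2) and from 0 to 2 in normal lung against NMG (0 without NMG replicate 1 or normal lung replicate 2). In metastasis against normal lung, B2m lost its call without metastasis replicate 4 or normal lung replicate 2. For the counts without 1 lane, too, the shares of all probes called are not given here.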
